A study of Mus musculus with 1 sample.

Results

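The Hes, Hey and Id repressors are 9 genes, Hes1, Hes5, Hes6, Hey1, Hey2, Id1, Id2, Id3 and Id4, taken by symbol from the 51912 genes listed in a table of single-cell counts of newborn mouse cortex. All 9 symbols were found, and all 9 passed the minimum of 100 UMIs used for the comparisons of groups. The cells came from wild-type (WT) C57BL/6 mice at P0, the day of birth, and were captured in droplets with the 10x Genomics method. The authors describe the tissue as cerebral cortex, while the sample label names telencephalic tissue. A random tag on every captured RNA molecule, the unique molecular identifier (UMI), lets PCR copies of 1 molecule be counted once. The data comprised 1 library of 11062 cells and 90346034 UMIs, with a median of 7197 UMIs per cell and no barcode listed more than once. With a single library no difference between groups was tested. The intervals given are exact 95% intervals that cover counting error only.

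Hes and Hey proteins are basic helix-loop-helix repressors that act downstream of Notch receptors. Hes1 and Hes5 recruit Groucho (Tle) corepressors and hold down proneural genes such as Neurog2, which keeps neural progenitors from differentiating. Hes6 instead counteracts Hes1 and accompanies neuronal differentiation. Id proteins lack a DNA-binding region and capture the E proteins (Tcf3, Tcf4, Tcf12) that proneural factors need as partners, and Id genes are known targets of BMP signaling.

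Sequences upstream of the start site were taken from RefSeq (GRCm38.p6), where 6 of the 9 genes matched. The 250 bases before the start are shown for Hes5 and Hey2, Notch targets whose levels were high in radial glia, and for Hes6 and Id2, whose levels were not highest there. Capitals mark TGGGAA, the core of the sites bound by the Notch partner RBPJ, or its other strand TTCCCA, and also GGCGCC, a GC-rich element known from SMAD binding. None of these motifs overlapped another in the windows shown.
Hes5, chr4:154960673-154960922, plus strand: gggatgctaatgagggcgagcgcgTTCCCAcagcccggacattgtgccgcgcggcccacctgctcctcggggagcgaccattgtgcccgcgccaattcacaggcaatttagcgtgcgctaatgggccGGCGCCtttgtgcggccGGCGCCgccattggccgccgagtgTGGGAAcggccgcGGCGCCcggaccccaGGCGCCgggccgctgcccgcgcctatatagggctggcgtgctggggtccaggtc
Hey2, chr10:30842784-30843033, minus strand: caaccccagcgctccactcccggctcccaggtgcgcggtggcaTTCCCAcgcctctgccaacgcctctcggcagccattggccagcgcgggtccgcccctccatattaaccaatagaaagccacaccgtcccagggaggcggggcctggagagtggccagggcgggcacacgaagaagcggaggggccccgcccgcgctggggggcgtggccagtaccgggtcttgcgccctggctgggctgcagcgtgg
Hes6, chr1:91413223-91413472, minus strand: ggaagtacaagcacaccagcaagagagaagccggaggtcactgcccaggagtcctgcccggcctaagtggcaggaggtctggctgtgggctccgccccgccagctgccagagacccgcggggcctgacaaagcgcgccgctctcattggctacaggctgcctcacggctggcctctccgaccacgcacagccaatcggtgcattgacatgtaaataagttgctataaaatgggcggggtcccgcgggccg
Id2, chr12:25096093-25096342, minus strand: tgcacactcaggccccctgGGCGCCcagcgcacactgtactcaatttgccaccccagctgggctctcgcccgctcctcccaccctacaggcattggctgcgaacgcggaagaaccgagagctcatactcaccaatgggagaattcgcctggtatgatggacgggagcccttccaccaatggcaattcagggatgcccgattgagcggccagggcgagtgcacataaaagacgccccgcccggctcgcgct

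The Hes5 window held 2 RBPJ cores and 4 GGCGCC elements, the Hey2 window held 1 RBPJ core and the Id2 window held 1 GGCGCC element. Neither motif occurred in the Hes6 window. Among 32851 mouse windows of the same length, 21.6% held an RBPJ core and 9.59% held GGCGCC. These shares were not matched for base content. The median of all windows was 52.4% G or C, and the windows of the 6 genes had 62.8% to 75.6%. Of the other 2 genes with a window, Id4 held 1 RBPJ core and 1 GGCGCC element, and Id3 held neither. The start used for Id3 lies 325 bases from its start in GENCODE M21, further than the window is long, so the window does not adjoin that start. For Id4 this distance was 112 bases, for Hey2 18 bases, and for Hes5, Hes6 and Id2 0 bases. The E box CANNTG, the motif of basic helix-loop-helix activators, occurred once in each of the 4 windows shown, in neither that of Id3 nor that of Id4, and in 66.2% of all windows. The N box CACNAG, a motif of Hes proteins, was searched on both strands and was found once in the Hes6 window and once in that of Id4, in none of the other 4, and in 36.7% of all windows. These matches describe letters, and binding was not measured.

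To set the levels of the repressors beside cell identity, cells with at least 2000 UMIs and 200 detected genes were gated by the UMIs of marker genes into 22 groups. No Hes, Hey or Id gene was used in a gate. Of the 11062 cells, 7848 (70.9%) were placed, 2431 were too shallow, and 783 carried markers of no group or of several. Radial glia or astrocytes (233 cells) had at least 3 detected genes among Aldoc, Mlc1, Aldh1l1, Gja1, Mfge8, Slc1a3 and Hopx, and fell under the limits for neuron, Olig, Eomes and cell-cycle genes. Among their leading genes outside the gate were Fabp7, Apoe, Mt3 and Tnc, known from the same cells. Dividing progenitors (40 cells) had at least 3 cell-cycle genes together with Sox2 or Pax6. Cells with Olig1 or Olig2 were divided into oligodendrocyte precursors with Pdgfra (119 cells) and Olig-positive cells without Pdgfra (147 cells). Cells with Eomes, the gene of intermediate progenitors and newborn excitatory neurons, numbered 190, of which 22 were dividing. Excitatory neurons (6584 cells) had Neurod2 or Neurod6 and were assigned to layers, except for 941 cells kept as other excitatory neurons. Inhibitory neurons (412 cells) had Gad or Dlx genes. A gate for other upper-layer cells (205 cells) was led by Nr4a2 and Scg2 and not by the upper-layer markers of its rule. It is therefore called by its rule only, and it was counted among the upper-layer neurons. Levels are given as CPM, the summed UMIs of a gene in a group scaled to the same total for every group.

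The 9 genes did not share a single pattern, as shown in the map of levels. Hes1, Hes5, Hey1, Hey2, Id1, Id3 and Id4 were high in radial glia or astrocytes and low in excitatory neurons. Hes6 and Id2 were found throughout the excitatory neurons, but were unlike each other in the Olig groups. Hes6 was at 194 CPM in Olig-positive cells without Pdgfra and 187 CPM in oligodendrocyte precursors, above its 98.3 CPM in excitatory neurons. Id2 was at 258 and 187 CPM in these groups, below its 588 CPM in excitatory neurons. Of the Id2 UMIs in all placed cells, 94.5% were in excitatory neurons, which held 87.6% of all UMIs of the placed cells. For Hes6 the share was 83.3% and for Hey1 it was 61.8%. In contrast, excitatory neurons held 3.29% of the Id3 UMIs, 5.79% of those of Id1 and 6.13% of those of Hes5.

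**Figure D1:**
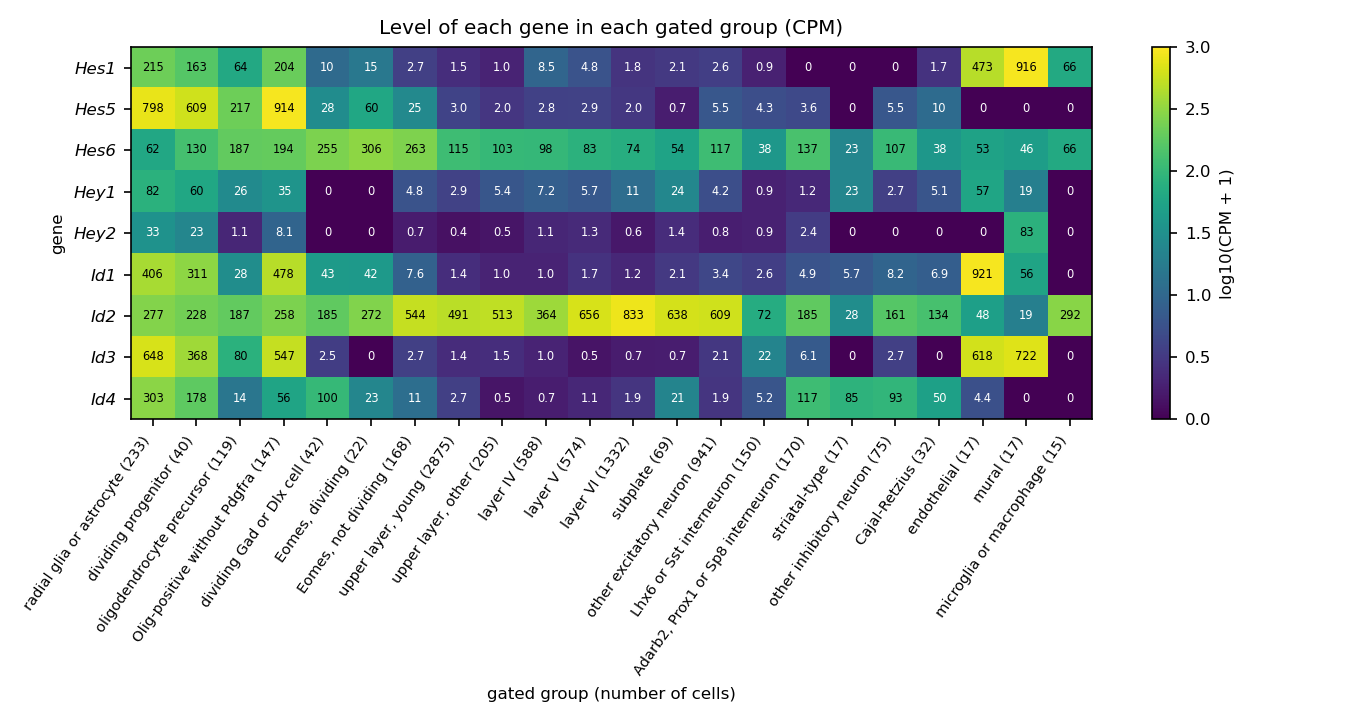
Level in CPM of each of the 9 genes (rows) in each of the 22 gated groups (columns, with the number of cells), printed in each field and colored by log10(CPM + 1). Hes5, Id1 and Id3 were high in the glial columns, with Hes5 at 798 CPM in radial glia or astrocytes, while Id2 was high across the excitatory neuron columns, with 833 CPM in layer VI.

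To ask how far these genes mark progenitors and glia, radial glia or astrocytes were first set against excitatory neurons. A gene was called higher or lower when the CPM values differed at least 2-fold. Among 14446 genes 45.1% were called, so a call by itself was common in this comparison, and 8 of the 9 repressors were called, 7 higher and 1 lower in radial glia or astrocytes. The median fold of the 9 genes was 75.5, against 0.957 for all genes. Hey2 had 138 UMIs in the placed cells, of which 57 were in radial glia or astrocytes. Without these 57 UMIs it would have missed the minimum of 100 UMIs. Its call and its place in the median were therefore not independent of that minimum.

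Hes1 and Hes5 are the effectors of Notch signaling in cortical progenitors. Hes5 was at 798 CPM (757 to 841, 1397 UMIs) in radial glia or astrocytes and 2.90 CPM (206 UMIs) in excitatory neurons, a 276-fold difference (238 to 321). It varied widely between radial glia cells, with a median of 3 UMIs and a highest value of 42 UMIs in 1 cell. Hes1 was at 215 CPM (194 to 238, 377 UMIs) against 2.85 CPM (203 UMIs), 75.5-fold higher (63.5 to 90.0). Both genes were therefore far from their neuron levels, well beyond counting error.

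Hey1 and Hey2 are related Notch targets that were sparser in this library. Hey1 was at 82.3 CPM (69.4 to 96.9, 144 UMIs) in radial glia or astrocytes and 6.16 CPM (438 UMIs) in excitatory neurons, 13.4-fold higher (11.0 to 16.2). Hey2 was at 32.6 CPM (24.7 to 42.2, 57 UMIs) against 0.661 CPM (47 UMIs), 49.3-fold higher (32.9 to 74.1). Of the 7 genes called higher, Hey1 had the smallest fold.

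Among the Id genes, Id1 and Id3 are classical BMP targets and Id4 is known from radial glia and astrocytes. Id3 had the largest fold of the 9 genes, with 648 CPM (611 to 687, 1135 UMIs) in radial glia or astrocytes and 1.12 CPM (80 UMIs) in excitatory neurons, a 577-fold difference (459 to 733). Id1 was at 406 CPM (376 to 437) against 1.53 CPM, 265-fold higher (216 to 327). Id4 was at 303 CPM (278 to 330) against 2.33 CPM, 130-fold higher (109 to 156). As with Hes5, these 3 genes were uneven between radial glia cells, with highest values of 49 UMIs for Id3, 23 UMIs for Id1 and 11 UMIs for Id4 in 1 cell and a median of 2 UMIs for each.

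**Figure D2:**
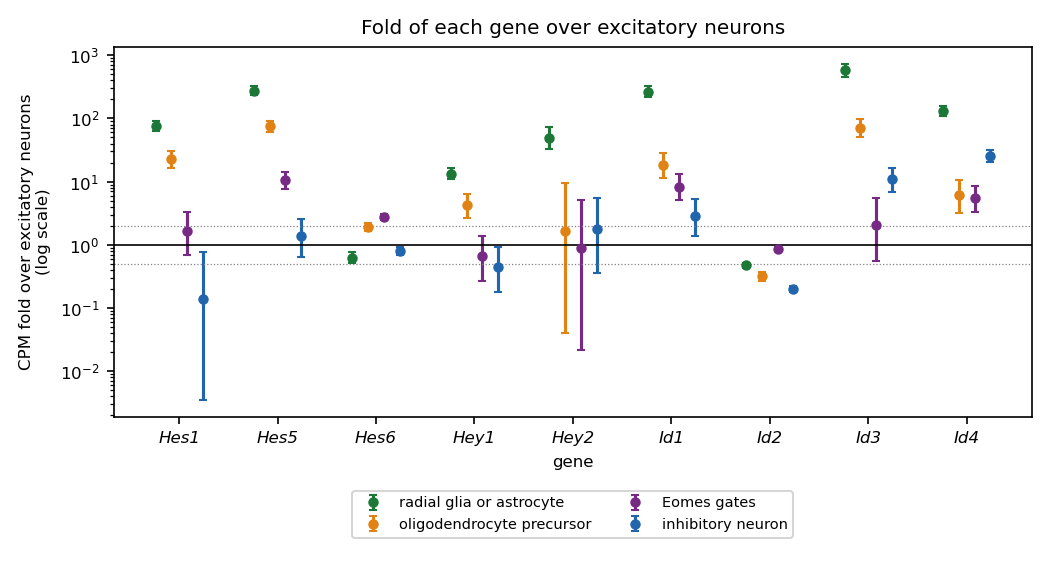
CPM fold over excitatory neurons (log scale) of each gene in radial glia or astrocytes, oligodendrocyte precursors, Eomes cells and inhibitory neurons, with exact 95% intervals for counting error. Radial glia or astrocytes reached 577-fold for Id3 and 276-fold for Hes5, while their Id2 value lay below 1 at 0.471.

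Free RNA in droplets gives low counts in cells that do not express a gene, so the neuron levels were set beside those of other glial genes. The 20 leading genes of radial glia or astrocytes were those with the largest folds over excitatory neurons, among commonly detected genes outside the gates. Their level in excitatory neurons was 0.0974% to 2.49% of the radial glia level, with a median of 0.422%. This choice favors low neuron shares, and whether shares of several percent come from free RNA was not tested. The highest value was that of Cst3, and the next was 1.88% for Qk. Id3 (0.173%), Hes5 (0.363%) and Id1 (0.378%) were below the median, Id4 (0.769%) and Hes1 (1.32%) were between the median and Qk, and Hey2 (2.03%) was above all but Cst3. In excitatory neurons taken as a whole, counts of these 6 genes could therefore not be told apart from free RNA. Hey1, at 7.48%, was above the range, as were Hes6 and Id2. The share of cells with a UMI told the same after each cell was thinned to 2000 UMIs. Hes5 was then detected in 59.7% of radial glia or astrocytes and 0.623% of excitatory neurons, and Hes1 in 28.3% and 0.547%. In unthinned cells, Hes5 was detected in 83.3% and 2.64% and Hes1 in 63.1% and 2.51%, at median depths of 7392 and 9467.5 UMIs.

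Hes6 and Id2 went against the other 7 genes. Hes6 was at 61.7 CPM (50.6 to 74.5, 108 UMIs) in radial glia or astrocytes and 98.3 CPM (6991 UMIs) in excitatory neurons, a fold of 0.628 (0.514 to 0.759) that was not called. Id2, which is known to be expressed in maturing cortical neurons as well as in progenitors, was at 277 CPM (253 to 303, 485 UMIs) against 588 CPM (41855 UMIs), a fold of 0.471 (0.430 to 0.515), and was called lower. In thinned cells Id2 was detected in 38.2% of radial glia or astrocytes and 53.4% of excitatory neurons. Thus Id2 was the only one of the 9 genes called lower in radial glia or astrocytes.

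Dividing progenitors were next compared with the non-dividing radial glia or astrocytes. Of 13973 genes 31.4% were called, and of the 9 repressors only Hes6 was. Hes6 was at 130 CPM (52 UMIs) in dividing progenitors against 61.7 CPM, 2.11-fold higher (1.49 to 2.97), and this fold was 1.91 under edgeR TMM scaling. The other 8 genes had folds from 0.568 to 0.823. Id3 was at 368 CPM against 648 CPM (0.568, 0.475 to 0.675) and Id4 at 178 CPM against 303 CPM (0.586, 0.451 to 0.752). For Hey1, Hey2 and Id2 the interval of the fold held 1. The summed radial glia markers, which were required of the radial glia gate only, were also lower in dividing progenitors, at 3197 against 6297 CPM, and their part in these folds was not tested. This group had 40 cells, and 12.5% of them were marked by the doublet caller, against 2.15% of the radial glia or astrocytes.

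Cells with Eomes stand between radial glia and neurons. Against excitatory neurons, 28.4% of 14446 genes were called, and 5 of the 9 repressors were higher. Hes6 was highest in these cells of all groups with at least 50 cells, with 263 CPM in the 168 non-dividing cells, 4.27-fold (3.44 to 5.33) above radial glia or astrocytes. Over both Eomes groups it was 2.75-fold (2.49 to 3.02) above excitatory neurons. Hes5 was 10.4-fold above excitatory neurons (7.55 to 14.2, 52 UMIs), Id1 8.35-fold (5.03 to 13.3, 22 UMIs) and Id4 5.48-fold (3.35 to 8.58, 22 UMIs). The fifth, Id3, rested on 4 UMIs (2.07-fold, 0.550 to 5.51). In the non-dividing Eomes cells the 20 leading glial genes stood at a median of 3.71% of their radial glia level (highest 62.7%, Ccnd2). Id1 (1.86%), Id4 (3.63%), Id3 (0.424%) and Hes5 were below that median, and the part of free or shared glial RNA in their folds was not tested.

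Most of the radial glia pattern was gone in Eomes cells. In the non-dividing cells Hes5 was at 24.7 CPM, 0.0310 of its level in radial glia or astrocytes (0.0216 to 0.0431), and Hes1 was at 2.75 CPM on 4 UMIs, 0.0128 of that level. Id2 had already reached 544 CPM there, 1.96-fold (1.75 to 2.20) above radial glia or astrocytes. The 22 dividing Eomes cells had more Id1 than the non-dividing ones, at 41.5 against 7.56 CPM (5.49-fold, 2.16 to 14.0, 11 UMIs each). Hes5 was at 60.4 against 24.7 CPM (2.44-fold, 1.27 to 4.51) on 16 and 36 UMIs. In each group 1 cell held 10 of these Hes5 UMIs, so the level of the dividing cells rested mostly on 1 cell. Hes1 was at 15.1 against 2.75 CPM on 4 UMIs each (5.49-fold, 1.02 to 29.5). The summed radial glia markers moved with them, at 295 against 109 CPM, and the limit on these markers was set for the non-dividing gate but not for the dividing one. Their part in these levels was not tested. The Id2 level of the dividing cells was 272 against 544 CPM, with an interval of the fold of 0.387 to 0.637. The doublet caller marked 9.52% of the non-dividing Eomes cells, and its part in these levels was not tested.

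The oligodendrocyte lineage also held most of these genes. In oligodendrocyte precursors, 37.8% of 14445 genes were called against excitatory neurons, and of the 9 repressors 6 were higher and 1 was lower. Hes5 was at 217 CPM (200 UMIs), 75.0-fold higher (61.4 to 91.5), and Id3 was at 80.3 CPM (74 UMIs), 71.4-fold higher (51.4 to 99.2). Hes1 was 22.4-fold higher (16.5 to 30.1), Id1 18.4-fold (11.5 to 28.5), Id4 6.05-fold (3.15 to 10.6) and Hey1 4.23-fold (2.68 to 6.38). A single precursor held 18 of the 74 Id3 UMIs, and a single precursor held 7 of the 26 Id1 UMIs. The summed radial glia markers were at 558 CPM in precursors, 6297 CPM in radial glia or astrocytes and 10.7 to 38.3 CPM in the excitatory neuron gates. Id1 (28.2 of 406 CPM) and Id4 (14.1 of 303 CPM) kept a smaller share of the radial glia level than these markers did, and the part of glial RNA in their folds was not tested. Id2 was lower, at 187 CPM (0.317, 0.272 to 0.369). Hes6 was at 187 CPM, 1.90-fold above excitatory neurons (1.62 to 2.21), and Hey2 had 1 UMI.

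Olig-positive cells without Pdgfra resembled radial glia or astrocytes in several of these genes. Their Hes1 level was 204 CPM, within counting error of that in radial glia or astrocytes (0.946, 0.806 to 1.11), and Hes5 was at 914 CPM (1.15, 1.06 to 1.24). Id1 was at 478 CPM and Id3 at 547 CPM. However, Id4 was 55.5 CPM, 0.183 of the radial glia level (0.142 to 0.234), Hey2 was 8.15 against 32.6 CPM on 11 and 57 UMIs (interval of the fold 0.118 to 0.482), Hey1 was 34.8 CPM (0.423, 0.298 to 0.592) and Hes6 was 194 CPM (3.14, 2.50 to 3.97). Of these 147 cells, 116 had at least 3 detected radial glia markers and 58 were dividing. Leading genes of the group were Hes5 itself, Mfge8, Egfr, Olig2 and Top2a.

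With these values seen, the Pdgfra-positive precursors were also compared with the Olig-positive cells without Pdgfra. Of 14099 genes 29.3% were called, and of the 9 repressors 6 were lower in precursors and none was higher. Id1 was at 28.2 against 478 CPM (0.0591, 0.0383 to 0.0874), Id3 at 80.3 against 547 CPM (0.147, 0.114 to 0.187), Hes5 at 217 against 914 CPM (0.238, 0.204 to 0.276) and Hes1 at 64.0 against 204 CPM (0.314, 0.233 to 0.418). Id4 (0.254, 0.129 to 0.461) and Hey2 (1 against 11 UMIs) were also lower. Hes6, Id2 and Hey1 had folds of 0.962, 0.724 and 0.748. Of the Olig-positive cells 58 of 147 were dividing, and of the precursors 16 of 119. Among dividing cells alone, Hes6 was on the other side of 1 (1.84, 1.31 to 2.56) and Id2 was called lower (0.491, 0.292 to 0.784). Hes5 was at 0.489 (0.369 to 0.640), with 27 of the 61 Hes5 UMIs of the dividing precursors in 1 cell.

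Much of this depended on which Olig-positive cells were used. The 31 cells with under 3 radial glia markers had 75.8 CPM of Id3, so that precursors were at 1.06 of them (0.627 to 1.89), and 80.0 CPM of Hes1 (0.800, 0.470 to 1.42). Id4 was at 0.838 of them on 13 and 4 UMIs (0.259 to 3.53), and Hey2 had 1 and 0 UMIs. Against these 31 cells Id1 (0.203, 0.117 to 0.350) and Hes5 (0.416, 0.331 to 0.524) were still lower in precursors, Hes6 was now called lower (0.482, 0.372 to 0.628), and Id2 was on the other side of 1 (1.58, 1.06 to 2.45). Between the 116 and the 31 Olig-positive cells, Id3 was 8.55-fold higher (5.37 to 14.5) in those with the markers, Id1 3.96-fold and Hes1 2.88-fold, whereas Hes6 was at 153 against 387 CPM (0.394, 0.304 to 0.514). The 16 dividing precursors had 2.15 times the Hes6 level of the 103 non-dividing ones (1.53 to 2.98) and more Id1 (2.85-fold, 1.16 to 6.68, 10 and 16 UMIs). Their Hes5 was at 368 against 184 CPM on 61 and 139 UMIs, with 27 of the 61 in 1 cell. None of these genes was higher in the 58 dividing Olig-positive cells than in the 89 others. The folds of dividing over other cells were 0.870 in Hes6 (0.676 to 1.12), 0.706 in Hes5 (0.629 to 0.792) and 0.900 in Id1 (0.768 to 1.05). Id3 was at 0.510 (0.436 to 0.597) and Hey1 at 0.406 (0.197 to 0.789).

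**Figure D3:**
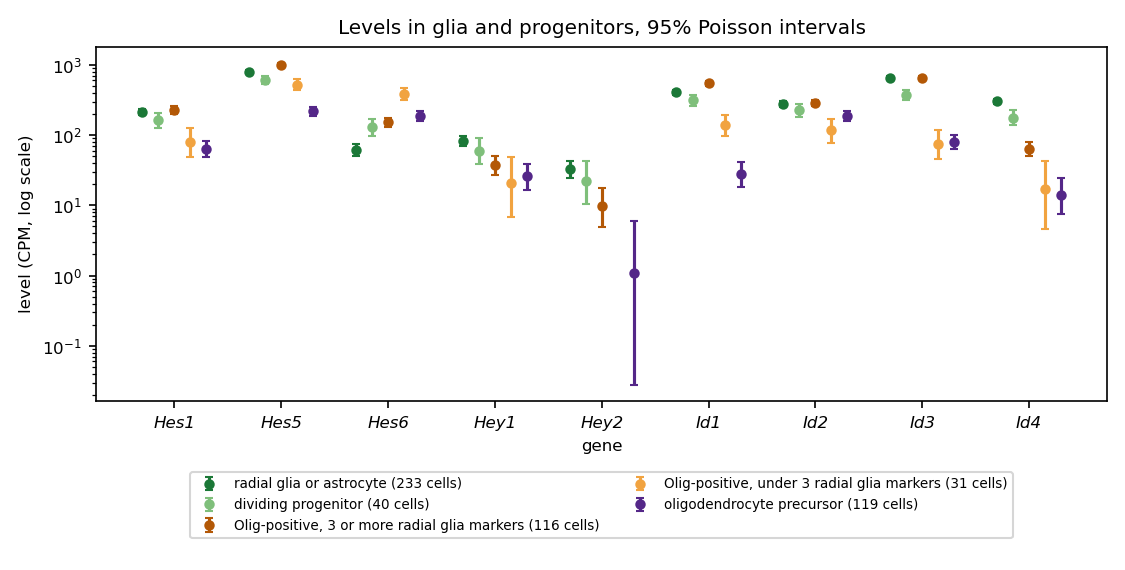
Level in CPM (log scale) of each gene in radial glia or astrocytes, dividing progenitors, Olig-positive cells with at least 3 or under 3 radial glia markers, and oligodendrocyte precursors, with exact Poisson 95% intervals. Id1 stood at 550 CPM and 139 CPM in the Olig-positive cells with and without the markers and at 28.2 CPM in oligodendrocyte precursors.

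Inhibitory neurons had more Id4 and Id3 and less Id2 than excitatory neurons. Of 14445 genes 17.7% were called, and of the 9 repressors 3 were higher in inhibitory neurons and 3 were lower. Id4 was at 59.8 CPM (151 UMIs) against 2.33 CPM, 25.6-fold higher (20.4 to 32.1), and Id3 was at 12.3 CPM (31 UMIs) against 1.12 CPM, 10.9-fold higher (6.97 to 16.7). Id1 was 2.84-fold higher on 11 UMIs (1.38 to 5.29), and its share of the radial glia level was below the median of the 20 leading glial genes in neurons with Adarb2, Prox1 or Sp8 (1.20% against 1.83%) and in other inhibitory neurons (2.02% against 2.46%). In those with Lhx6 or Sst it was 0.638%, between the median (0.262%) and the highest gene. Id2 was lower, at 118 against 588 CPM (0.201, 0.179 to 0.225), as were Hey1 (7 UMIs, 0.450) and Hes1 (1 UMI).

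The main classes of inhibitory neurons were unlike each other. Neurons with Adarb2, Prox1 or Sp8 (170 cells) had 117 CPM of Id4 (94.4 to 142), against 5.18 CPM (6 UMIs) in those with Lhx6 or Sst (150 cells), 22.5-fold higher (9.98 to 62.9). They were also higher in Hes6, with 137 against 38.0 CPM (3.62-fold, 2.53 to 5.25), and in Id2, with 185 against 71.6 CPM (2.58-fold, 1.96 to 3.41). Id3 went the other way, with 25 UMIs (21.6 CPM) in Lhx6 or Sst neurons and 5 UMIs (6.07 CPM) in the others. At 3.33% of the radial glia level, Id3 in Lhx6 or Sst neurons was above the median of the 20 leading glial genes there (0.262%) and below the highest (11.5%, Qk). The 42 dividing cells with Gad or Dlx genes had more Hes6 than the inhibitory neurons, at 255 against 79.2 CPM (3.22-fold, 2.51 to 4.11), and more Id1, at 42.6 against 4.36 CPM (9.77-fold, 4.32 to 23.1). Their summed radial glia markers were at 163 CPM, against 11.3 to 46.5 CPM in the inhibitory neuron gates, which unlike theirs had a limit on these markers. Pdgfra was at 67.6 CPM, against 0 to 16.4 CPM, and the part of either in these levels was not tested.

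Between upper-layer and deep-layer excitatory neurons, 9.29% of 14445 genes and 2 of the 9 repressors were called. The upper-layer neurons (3668 cells) pooled the young and other upper-layer gates with layer IV. The deep-layer neurons (1906 cells) pooled layers V and VI and left out the subplate. Hey1 was lower in upper layers, at 3.93 against 9.12 CPM (0.431, 0.349 to 0.532). Within the upper layers Hey1 was at 7.17 CPM in layer IV and 2.91 CPM in young upper-layer neurons. Within the deep layers Hey1 was at 11.0 CPM in layer VI and 5.72 CPM in layer V. Layers IV and V did not differ beyond counting error (ratio of IV to V 1.25, 0.843 to 1.87), so the call did not hold between every upper and deep layer. Id3 was called higher, on 51 and 15 UMIs (2.19, 1.21 to 4.19), and over all excitatory neurons it was at 0.173% of the radial glia level, as given above. Id2 was at 466 against 771 CPM (0.604, 0.592 to 0.616) and Hes6 at 111 against 77.0 CPM (1.44, 1.36 to 1.52), both under 2-fold with intervals that excluded 1.

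Single layers showed further differences. Hes1 was at 8.53 CPM (69 UMIs) in layer IV, 5.79-fold above young upper-layer neurons (3.89 to 8.72) and 4.75-fold above layer VI (3.04 to 7.60). At 3.96% of the radial glia level it exceeded the highest of the 20 leading glial genes in layer IV (2.83%). Hey2 also exceeded the highest leading gene in layer IV (3.42%, 9 UMIs), in layer V (3.86% against 2.65%, 11 UMIs) and in the subplate (4.40% against 3.08%, 2 UMIs). Hey1 was highest among neurons in the subplate, the earliest-born cortical neurons, with 23.6 CPM (33 UMIs, 69 cells), 2.16-fold above layer VI (1.44 to 3.14). The subplate also had 21.5 CPM of Id4 (30 UMIs), 11.2-fold above layer VI (6.55 to 19.1). The subplate levels were 28.7% of the radial glia level for Hey1 and 7.08% for Id4, against at most 3.08% for the leading glial genes. These 20 genes were chosen for low levels in excitatory neurons, and the part of free RNA in the shares above theirs was not tested. The subplate gate had the deepest cells, with a median of 19467 UMIs, and 10.1% were marked by the doublet caller.

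Id2 was graded over the excitatory neurons. It was at 833 CPM in layer VI, 656 CPM in layer V, 638 CPM in the subplate, 491 CPM in young upper-layer neurons and 364 CPM in layer IV. Layer VI was 2.29-fold above layer IV (2.20 to 2.38) and 1.27-fold above layer V (1.23 to 1.31). In layer V, Id2 ranged from 0 to 90 UMIs per cell, with a median of 3 UMIs.

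Because of this spread, and after it had been seen, layer V cells were divided by Bcl11b (Ctip2), which is known for neurons that project below the cortex. Of 574 layer V cells, 381 had no Bcl11b UMI, 49 had 1 and 144 had at least 2. Bcl11b was itself a gate gene of layer V, so the cells without it met the gate through other genes: 379 of the 381 had Ldb2 (quartiles 4 and 6 UMIs), 40.7% had Fezf2 and 3.67% had Crym. The division thus sets cells gated by different genes side by side, and whether both are neurons of layer V was not tested. The cells with no Bcl11b had a median of 1 Id2 UMI (quartiles 0 and 6), and those with at least 2 had a median of 17 UMIs (quartiles 7 and 38.25). As a level, Id2 was at 370 CPM against 1254 CPM, 3.39-fold higher with Bcl11b (3.20 to 3.58). Of the 14366 genes compared 16.4% were called, and of the 9 repressors 2 were higher and 1 was lower with Bcl11b. The second called higher was Id4, on 4 and 6 UMIs. Hes1 was lower, at 1.11 against 6.85 CPM (0.162, 0.0320 to 0.513, 3 against 37 UMIs).

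The Bcl11b-positive cells were deeper, with a median of 18522.5 against 13533 UMIs. In cells with at least 5000 UMIs the Id2 fold was 3.44, and without cells marked by the doublet caller it was 3.62. Among the other gate genes of layer V, Fezf2 was at 208 against 60.0 CPM and Crym at 228 against 3.33 CPM, while Ldb2 was at 286 against 372 CPM. In layer VI, Id2 was at 883 CPM in the 1094 cells with Bcl11b and 403 CPM in the 120 cells without (2.19-fold, 2.01 to 2.39).

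**Figure D4:**
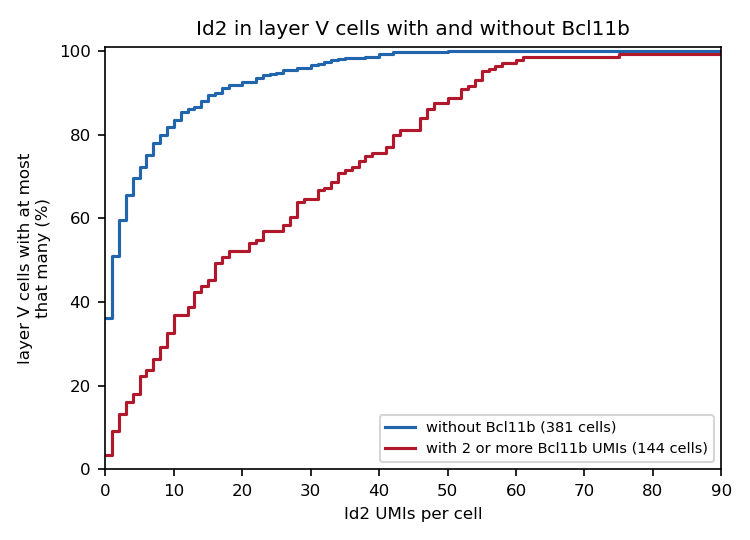
Cumulative share of layer V cells (percent) with at most a given number of Id2 UMIs, for cells of the layer V gate with no Bcl11b UMI and with at least 2. The curve of cells without Bcl11b is high from the left, with a median of 1 UMI, and that of cells with Bcl11b lies to the right, with a median of 17 UMIs.

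The order of the levels over the 14 groups with at least 50 cells differed between genes. For Hes1, radial glia or astrocytes and Olig-positive cells without Pdgfra did not differ beyond counting error, and oligodendrocyte precursors, layer IV and layer V followed at 64.0, 8.53 and 4.81 CPM, each below the one before. For Hes5, Olig-positive cells led, followed by radial glia or astrocytes, oligodendrocyte precursors and non-dividing Eomes cells, each below the one before, and the other 10 groups lay between 0.716 and 5.49 CPM with no neighbors differing. For Id1 the first 3 groups were the same in the same order, and for Id3 and Hey2 radial glia or astrocytes led. Id4 was led by radial glia or astrocytes, with Adarb2, Prox1 or Sp8 neurons second at 117 CPM. Other inhibitory neurons came next at 93.0 CPM and did not differ from these neurons beyond counting error (1.25, 0.840 to 1.91). Hes6 was led by non-dividing Eomes cells, ahead of Olig-positive cells and oligodendrocyte precursors, which did not differ from each other. In the order for Id2, the subplate did not differ from layer V above it or from other excitatory neurons below it. Layer V was at 656 CPM (639 to 673) and other excitatory neurons at 609 CPM (590 to 629). Lhx6 or Sst neurons came last.

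Outside the neural lineage, small groups of vascular cells and microglia held some of these genes. In 17 endothelial cells Id1 was at 921 CPM (800 to 1054), 2.27-fold above radial glia or astrocytes (1.94 to 2.65), Id3 was at 618 CPM and Hes1 at 473 CPM. In 17 mural cells, the pericytes and smooth muscle of vessels, Hes1 was at 916 CPM, 4.25-fold above radial glia or astrocytes (3.37 to 5.32), Id3 was at 722 CPM and Hey2 at 83.3 CPM on 9 UMIs. Hes5 had 0 UMIs in both, which allows up to 13.2 CPM in endothelial and 27.8 CPM in mural cells when 3 counts are taken as the limit. In 15 microglia or macrophages Id2 was at 292 CPM (31 UMIs). The summed endothelial markers were at 5.14 CPM in radial glia or astrocytes, with Cldn5, Flt1 and Esam at 0, against 13328 CPM in endothelial cells. The mural markers summed to 147 CPM there, of which Pdgfrb gave 130 CPM, with Vtn, Kcnj8 and Abcc9 at 0, against 16065 CPM in mural cells. The microglial markers summed to 2.29 CPM, against 18930 CPM in microglia or macrophages.

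The repressors were then counted cell by cell. Radial glia or astrocytes had UMIs of a median of 6 of the 9 genes, and 68.2% of them had at least 5. In excitatory neurons the median was 2 genes, and 0.0608% had at least 5. After thinning to 2000 UMIs the medians were 3 and 1.

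Within radial glia or astrocytes, pairs of Id1, Id2 and Id3 were found together more often than the product of their shares. In thinned cells, Id2 and Id3 were both detected in 27.0% of cells, against a product of 17.5%, and Id3 was found in 70.8% of cells with Id2 and 30.6% of those without. Id1 and Id3 were together in 25.8% (product 18.1%), and Id1 and Id2 in 21.9% (product 15.1%). For Hes1 with Hes5 the values were 18.0% and 16.9%, and for Id3 with Id4 they were 22.7% and 20.9%. Hey1 and Hey2 were too sparse to read in thinned cells, with 35 and 14 positive cells and 0 with both. In unthinned cells 22 held both (9.44%, product 7.37%). These values come from 233 cells of 1 library and were not tested.

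**Figure D5:**
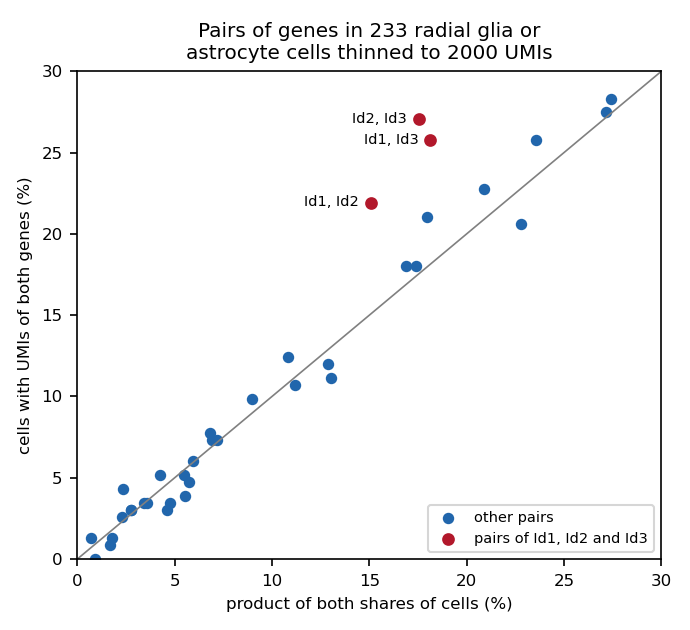
Percent of 233 radial glia or astrocytes, thinned to 2000 UMIs, with UMIs of both genes of a pair, against the product of both shares, with a line of equality. The pairs of Id1, Id2 and Id3 lie above the line, the highest of these at 27.0% for Id2 with Id3 against a product of 17.5%.

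Other genes of the same pathways were described from lists of receptors, ligands and partners. Of 11 Notch pathway genes compared, of 12 listed, 8 were higher and 2 lower in radial glia or astrocytes than in excitatory neurons, where 20.9% of all genes were higher and 24.3% lower. The receptors had the largest folds, with Notch1 at 402 against 2.31 CPM (174-fold, 147 to 208), Notch2 at 337 against 1.88 CPM (179-fold) and Notch3 at 75.4 against 0.590 CPM (128-fold). The ligand Jag1 was 31.3-fold higher, Rbpj 2.22-fold higher and Jag2 lower (0.0513, 2 UMIs). In Eomes cells 8 of the 11 were higher than in excitatory neurons and none was lower, where 13.6% of all genes were higher. Notch1 had the largest of these folds, at 97.7 against 2.31 CPM (42.4-fold, 34.0 to 52.9). The ligands Dll3 (11.4-fold) and Dll1 (3.47-fold) and Maml3, a coactivator of the Notch complex (8.60-fold), were also higher. Notch2, Notch3 and Jag1 rested on 9, 4 and 3 UMIs, and the part of free glial RNA in these folds was not tested.

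The proneural gene Neurog2 was at 189 CPM in Eomes cells against 2.70 CPM in excitatory neurons (70.0-fold). Among the E proteins, Tcf3 (3.18-fold) and Tcf12 (2.31-fold) were higher in radial glia or astrocytes, and Tcf4 was at 1.01-fold. Of 10 BMP pathway genes compared, of 13 listed, 5 were higher and 1 was lower in radial glia or astrocytes than in excitatory neurons, against the 45.1% of all genes called in that comparison. The ligand Bmp7 had by far the largest fold (224, 104 to 550, 44 against 8 UMIs), followed by the receptor Bmpr1a (6.78-fold), the decoy receptor Bambi (4.47-fold), the receptor Bmpr1b (2.91-fold) and Smad5 (2.37-fold), while the receptor Acvr1 was lower (0.307). Of 5 Groucho genes compared, of 7 listed, Tle1 was higher (2.50-fold), and Tle2 and Tle4 were lower, Tle4 being a marker of the layer VI gate. These 3 of 5 stand beside the same 45.1% of all genes. Of the other Hes and Hey relatives, 3 of 7 had enough UMIs. Bhlhe40 was 14.1-fold higher in radial glia or astrocytes, and Helt had 2 UMIs there but 57 UMIs in oligodendrocyte precursors (61.9 CPM). Olig-positive cells without Pdgfra had 34 Helt UMIs (25.2 CPM).

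For each repressor the genes with the most similar levels over the 14 groups were taken from 6209 genes, by Pearson's r of log2(CPM + 10). These values describe groups of 1 library, and the groups share its free RNA and differ in depth. Hes5 was most like Mfge8 (r = 0.993), which was a gate gene, and next Nes (0.991), which codes for nestin. Id1 was most like Dio2 (0.994) and Lfng (0.991), a modifier of Notch, and Lfng was also the closest to Id3 (0.984). Hes1 was closest to Tlcd1 (0.986), Hey1 to Nr3c1 (0.964), the glucocorticoid receptor, Hey2 to Pla2g16 (0.991) and Id4 to Tacc1 (0.916). Id2 was closest to Ntrk3 (0.904), Wnt7b (0.903) and Tbr1 (0.899), a factor of deep-layer neurons, and Hes6 to Rcc2 (0.898). Among the repressors themselves, Hes1 with Hes5 (0.975) and Id1 with Id3 (0.968) were most alike. Pairs across the families were close behind, such as Hes5 with Id3 (0.964), Hes5 with Id1 (0.961) and Hes1 with Id3 (0.958). In contrast, Id2 had r = -0.396 with Id3 and -0.435 with Id4.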

How the data were processed

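Single-cell RNA sequencing (10x Genomics, 3′ end) was done on WT mice at P0, on cerebral cortex by the authors' account and telencephalic tissue by the label. The authors deposited 1 table of raw UMI counts per gene and cell; the submitters' processing notes name Cell Ranger 2, STAR, Seurat and the build mm9, and the rule that called cells is not given in the sources used here. The 11062 cells had 500 to 92061 UMIs (quartiles 2452 and 11166), and precision is that of counting in 1 library. Cells with at least 2000 UMIs and 200 genes were gated by marker UMIs, summed per group and expressed as CPM. Groups were compared without a test: ratios of 2 sums have exact conditional binomial intervals, levels exact Poisson intervals, and shares of cells Clopper-Pearson intervals. Genes with at least 100 UMIs in gated cells were compared, and a 2-fold difference was called. Doublets were removed only by the gates; Scrublet's automatic cut marked 0 cells, so the 6% with the highest scores (693 cells) were marked and left out as an alternative. The calculations were tested on simulated data.

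The text names all 9 members, the gene lists of their pathways by their counts (the list of proneural genes is not reported here in full), and for each member the most similar genes among the top 3. The members, gates and lists were chosen with earlier results of these data known. The comparisons of oligodendrocyte precursors with Olig-positive cells and of layer V or VI cells by Bcl11b, and the smaller subgroups, were added after values had been seen. Hes5 overlaps Gm20421 on the other strand, which had 1 UMI in all. Id4 overlaps A330033J07Rik, with 16 UMIs, and Gm49291, which is absent from the counts, both on the other strand. Alternatives changed the UMI minimum, gates, total, scaling, thinning, mitochondrial cells, doublets and the called fold. Python 3.11.15, numpy 2.4.6, scipy 1.17.1, pandas 2.3.3, scanpy 1.11.5, R 4.3.3, edgeR 4.0.16 and DESeq2 1.42.0 were used, the last 2 for scaling factors only.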

Additional observations from a re-analysis of the deposited data

How the results depend on the processing

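No paired analysis was possible because no sample had a replicate to pair. Of 654 folds recomputed under the alternatives, 589 stayed inside the counting interval of the reported fold, 55 were outside it on the same side of 1, 8 with a reported fold under 2 either way were outside it and across 1, and 2 called folds were reversed: Id3 in Eomes cells over excitatory neurons was 0 in cells thinned to 2000 UMIs, where its 4 UMIs were lost, and Id3 in oligodendrocyte precursors over Olig-positive cells was 1.06 with the 31 cells of under 3 radial glia markers. With the same 31 cells Hey2 gave no fold (1 against 0 UMIs). The 8 were Hey2 at 0 in 4 cases, 3 in oligodendrocyte precursors (reported fold 1.64) and 1 in thinned inhibitory neurons (1.80), Id1 in thinned dividing progenitors (0.766, then 1.02), Id4 in thinned upper over deep layers (1.30, then 0.483), Hes6 in dividing precursors over dividing Olig-positive cells (0.962, then 1.84) and Id2 in precursors over the 31 cells (0.724, then 1.58). Of 63 pairs of gene and comparison, 19 crossed 2-fold under some alternative. In dividing progenitors over radial glia or astrocytes, 1 of the 9 genes was called; the number was 0 with edgeR TMM factors, 0 with DESeq2 size factors, 4 in thinned cells, 3 at a fold of 1.5 and 0 at a fold of 3. In Eomes cells over excitatory neurons it was 5, and 3 at a fold of 3. In upper over deep layers it was 2, and 4 at a fold of 1.5 and 0 at a fold of 3. The cause was not tested beyond what each alternative changes by construction. TMM factors shifted all genes by -0.11 (log2) in oligodendrocyte precursors over excitatory neurons, -0.15 in dividing progenitors over radial glia and -0.14 in Eomes cells over excitatory neurons. Counts were few for Hey2, and for Hes1, Id1 and Id3 in neurons, and the lack of a second library leaves variation between animals unmeasured.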
